A study of Mus musculus with 8 samples.

Results

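The testis-specific serine kinases are a family of 6 genes, Tssk1 to Tssk6, and all 6 were represented among the 19507 genes with a symbol on the array. Their probes were found by the gene name that the array files give each spot, and 8 probes of 41174 carried the name of a member. DEHP, di-(2-ethylhexyl) phthalate, is a plasticiser that was given by daily gavage in corn oil for 21 days, at a dose of 200 mg/kg/day, and the vehicle mice received corn oil alone. All mice were male, of the inbred strain C57BL/6J and labelled as 21 weeks old, with 4 DEHP mice and 4 vehicle mice. RNA was taken by laser capture from areas rich in Sertoli cells, the supporting somatic cells of the seminiferous tubule, in the right testis, and was amplified in 2 rounds. The tissue label places these areas in the intermediate layer of the tubule epithelium, whereas the wording of the capture protocol speaks of Leydig cells, the hormone-producing cells between the tubules. Each DEHP mouse shared its 2 arrays with a single vehicle mouse, once in each dye orientation, on 8 Agilent 2-colour arrays. DEHP mice 1, 2, 3 and 4 met vehicle mice 2, 3, 4 and 1 in that order, and a pair carries the number of its DEHP mouse.

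The kinases of this family are known as proteins of haploid male germ cells, and their transcripts accumulate in spermatids, the cells that reshape into sperm. They belong to the same branch of the kinase tree as the energy sensor AMPK. In mice, loss of Tssk6, or of Tssk1 and Tssk2 together, makes males infertile, and the family is known for its part in chromatin condensation and in the building of the sperm tail. Fewer cells of a type and less RNA per cell cannot be told apart in these samples, since each value is a sum over the captured area.

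Probe letters show which stretch each probe was made to read. The following are those of the 2 genes with a pair of probes, of Tssk2 and of Tssk5 and Tssk6. Sequences are from the array files, 5′ to 3′ on the gene's strand, with positions in the mouse build mm7, and capitals mark the polyadenylation signal AATAAA. For Tssk1 probe 2, Tssk2 and Tssk4 probe 1 the last 30 bases are shown, and the others are whole probes of 60 bases.
Tssk1 probe 1: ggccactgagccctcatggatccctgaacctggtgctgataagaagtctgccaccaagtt
Tssk1 probe 2: ttcctaacagcaaccgccttaaaaaggagt
Tssk2: tactgaccaccaAATAAAccacaaagtgta
Tssk4 probe 1: aaagactggggggaaatcttttctataaaa
Tssk4 probe 2: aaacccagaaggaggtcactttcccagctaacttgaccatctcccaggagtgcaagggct
Tssk5: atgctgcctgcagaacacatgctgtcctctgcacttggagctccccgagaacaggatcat
Tssk6: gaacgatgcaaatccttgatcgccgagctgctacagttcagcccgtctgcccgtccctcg

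On chromosome 16, Tssk1 probe 1 lay at chr16:17444961-17445020, Tssk1 probe 2 at chr16:17447575-17447634 and the Tssk2 probe at chr16:17449690-17449749, all on the plus strand. Tssk1 probe 2 thus began 2614 bases after the first Tssk1 probe and 2115 bases before the Tssk2 probe. In RefSeq (GRCm38.p6) the Tssk1 gene is 1451 bases long and 2983 bases separate it from Tssk2. A gene of that length cannot hold both Tssk1 probes, whose starts in mm7 lie 2614 bases apart. The 2115 bases from Tssk1 probe 2 to the Tssk2 probe are fewer than the 2983 bases between the genes. If the Tssk2 probe lies in Tssk2 and spacing is alike in both builds, Tssk1 probe 2 lies outside the Tssk1 gene. Tssk1 probe 1 is the one that the array files tie to a RefSeq transcript of Tssk1. Both are called Tssk1 here by the gene name of the array files. The Tssk3 probe lay at chr4:128933708-128933767 on the minus strand and the Tssk6 probe at chr8:68357690-68357749 on the plus strand. Tssk4 probe 1 lay at chr14:50519807-50519866, while Tssk4 probe 2 spanned 326 bases (chr14:50519149-50519474, plus strand) with a gap of 266 bases in the genome. The Tssk5 probe spanned 149 bases on the minus strand (chr15:76454808-76454956) with a gap of 89 bases. The polyadenylation signal occurred in 1 of the 8 member probes, that of Tssk2, and in 4.78% of all 41174 probes on the strand of the probe. The longest run of letters shared by any 2 member probes was 8 bases, and exon annotation of mm7 was not used here.

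Tssk1 and Tssk2 are neighbours in the same orientation, and both promoters in the RefSeq table (GRCm38.p6, 250 bases before to 50 after the start) held the 8 letters TGACTTCA, shown in capitals on the plus strand within windows of 30 bases.
Tssk1 (chr16:17894144-17894173): ttactcctttgTGACTTCAcccactgaagt
Tssk2 (chr16:17898568-17898597): gcccagctttaTGACTTCAttcgctggtca
The motif began 48 bases before the start of Tssk1 and 58 bases before that of Tssk2, and Tssk1 held it once more on the minus strand, at 35 bases before the start. These letters were picked after both sequences had been read, and they resemble the palindromic cyclic AMP response element, TGACGTCA, the site read by CREB and by its testis relative CREM. On either strand, TGACTTCA occurred in 1.52% of 32851 promoters, TGACGTCA in 1.79% and its shorter part TGACG in 20.8%. Of the 5 members with a promoter in the table (Tssk1, Tssk2, Tssk3, Tssk4 and Tssk6), 2 held TGACTTCA, 0 held TGACGTCA and 1 (Tssk6, with its first base at -73 relative to the start) held TGACG. The TATA letters TATAAA occurred in 0 of the 5 members and in 13.6% of all promoters.

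Of the 8 member probes, 7, covering all 6 genes, were well above background in all 16 channels, and no member spot was saturated. The exception was Tssk1 probe 2, which was well above background in 1 of 8 DEHP channels and 1 of 8 vehicle channels, both on the same array. Its net signal was 1.90 to 71.3 over the 16 channels. The 7 kept probes were among 22971 probes tested, for 14307 symbols.

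No member of the family passed the test between DEHP and vehicle mice. By limma, with adjustment over all probes tested, 0 of 7 kept probes had an adjusted p under 0.05, as had 0% of the 22971 probes, and the members' adjusted p ran from 0.903 to 0.972. At an unadjusted p under 0.05 there were 0 of 7 members, against 4.59% of all probes. Under 2 alternatives both Tssk4 probes, 1 and 2, had an unadjusted p under 0.05, with array weights (0.0336 and 0.0404) and without pair 4 (0.0110 and 0.0246), with an adjusted p of 0.565 or more by limma. Mean log2 ratios of DEHP over vehicle ran from -0.14 for Tssk6 to 0.15 for Tssk4 probe 1, and 2 of 7 probes, both of Tssk4, lay above 0, against 48.9% of all probes. When loess was replaced by median centring, Tssk1 (0.055), Tssk2 (0.11) and Tssk3 (0.16) also lay above 0. None had the same sign in all 4 pairs (0 of 7, against 13.6% of all probes), and the mouse levels of DEHP and vehicle overlapped for each (0 of 7 apart, against 1.81%). The median over the 7 probes was -0.056, with pair medians of -0.14, 0.14, 0.042 and -0.12 in pairs 1 to 4 (SD 0.14), beside a median of -0.0021 over all probes. Levels are log2 intensities per mouse, each from 1 Cy5 and 1 Cy3 channel, and levels of different probes are not set against each other.

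Tssk1 and Tssk2 encode kinases that bind the testis-specific substrate TSKS, and in mice the pair is needed for the mitochondrial sheath of the sperm tail. The level of Tssk1 probe 1 was 11.07, 11.34, 11.18 and 11.23 in DEHP mice 1 to 4, against 11.48, 11.57, 10.96 and 11.02 in vehicle mice 1 to 4. The 4 DEHP mice lay together between 2 high and 2 low vehicle mice, with an SD of 0.11 in DEHP mice and 0.31 in vehicle mice. By pair the log2 ratio was -0.51, 0.37, 0.16 and -0.25, with a mean of -0.056 ± 0.40 (SD, n = 4 pairs), a 95% interval of -0.46 to 0.35 and an adjusted p of 0.972 by limma. The sign of Tssk1 was thus shared by 2 of 4 pairs, and the spread between pairs was larger than the mean, which was 0.094 without pair 1 and 0.0088 without pair 4. Tssk1 probe 2, near background, gave 0.017 ± 0.026 (SD, n = 4 pairs) in a fit without the filter, with an adjusted p of 0.929 by limma over 41174 probes.

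Tssk2 had levels of 15.22, 15, 15.29 and 15.21 in DEHP mice and 15.55, 15.16, 15.15 and 15.25 in vehicle mice. Vehicle mouse 1 was the highest and DEHP mouse 2 the lowest, and the other mice lay within the same range. The pair ratios of Tssk2 were 0.065, -0.15, 0.042 and -0.34, with a mean of -0.095 ± 0.19 (SD, n = 4 pairs), a 95% interval of -0.31 to 0.12 and an adjusted p of 0.909 by limma. Without pair 4 the mean of Tssk2 was -0.014. Over the 8 mice the levels of these neighbouring genes had a Pearson r of 0.20, and their signs were opposite in pairs 1 and 2 and alike in pairs 3 and 4.

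Tssk6 encodes a kinase that phosphorylates histones in spermatids, H2AX among them. Its level was 9.37, 9.32, 9.59 and 9.36 in DEHP mice, against 9.31, 9.83, 9.49 and 9.58 in vehicle mice. DEHP mouse 3 stood above the other 3 DEHP mice and within the range of the vehicle mice, whose mouse 1 was the lowest of all 8. The pair ratios of Tssk6 were -0.46, -0.17, 0.0032 and 0.055, and the mean of -0.14 ± 0.23 (SD, n = 4 pairs; 95% interval -0.40 to 0.11; adjusted p 0.907 by limma) was the lowest of the family. Pair 1 carried most of it, and without that pair the mean was -0.036.

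Tssk3 encodes a small kinase of the same family, made almost wholly of the catalytic domain. Its level was 15.65, 15.90, 15.70 and 15.95 in DEHP mice, against 15.93, 16.04, 15.76 and 15.70 in vehicle mice. Both groups held mice near 15.7 and mice near 15.9, so that the levels interleaved. The pair ratios of Tssk3 were -0.39, 0.14, 0.0031 and 0.016, with a mean of -0.057 ± 0.23 (SD, n = 4 pairs), a 95% interval of -0.31 to 0.20 and an adjusted p of 0.951 by limma. Pair 1 was the only one with Tssk3 below 0, and the mean was 0.054 without it.

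Tssk4, a kinase known in mice to phosphorylate the tail protein ODF2, was read by 2 probes that both lay above 0 on average. The level of Tssk4 probe 1 was 13.29, 13.44, 13.41 and 13.18 in DEHP mice and 13.30, 12.97, 13.29 and 13.14 in vehicle mice. The level of Tssk4 probe 2 was 11.06, 11.15, 11.14 and 11.18 in DEHP mice and 11.34, 10.96, 10.93 and 10.88 in vehicle mice. On probe 2 the 4 DEHP mice lay above vehicle mice 2, 3 and 4 and below vehicle mouse 1, while on probe 1 the groups interleaved. The pair ratios were 0.32, 0.15, 0.27 and -0.12 on probe 1 and 0.10, 0.21, 0.25 and -0.16 on probe 2, so that both probes were above 0 in pairs 1, 2 and 3 and below 0 in pair 4. The mean of Tssk4 probe 1 was 0.15 ± 0.20 (SD, n = 4 pairs), with a 95% interval of -0.067 to 0.38, an unadjusted p of 0.134 and an adjusted p of 0.903 by limma. Without pair 4 the means were 0.25 on Tssk4 probe 1 and 0.19 on Tssk4 probe 2. With all pairs, the mean of Tssk4 probe 2 was 0.10 ± 0.18 (SD, n = 4 pairs), with a 95% interval of -0.11 to 0.31 and an adjusted p of 0.908 by limma. The 2 probes correlated with each other by r = 0.48 over the 8 mouse levels and by 0.81 over the 4 pair ratios.

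Tssk5 had the narrowest range over the 8 mice, 0.31 on the log2 scale, with an SD of 0.13 in DEHP mice and 0.059 in vehicle mice. Its level was 8.02, 8.24, 8.18 and 8.33 in DEHP mice, against 8.29, 8.16, 8.26 and 8.27 in vehicle mice. DEHP mice 1 and 4 were the lowest and the highest of all 8, and the vehicle mice lay between them. The pair ratios of Tssk5 were -0.14, -0.024, -0.082 and 0.040, with a mean of -0.051 ± 0.076 (SD, n = 4 pairs), a 95% interval of -0.18 to 0.075 and an adjusted p of 0.919 by limma. Its net signal was 89.97 to 283.7, against an offset of 50 added in background correction, which pulls the ratios of dim spots towards 0. With an offset of 10 the mean of Tssk5 was -0.056, and without background correction it was -0.099. With the ratio of the Agilent software it was -0.15.

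**Figure D1:**
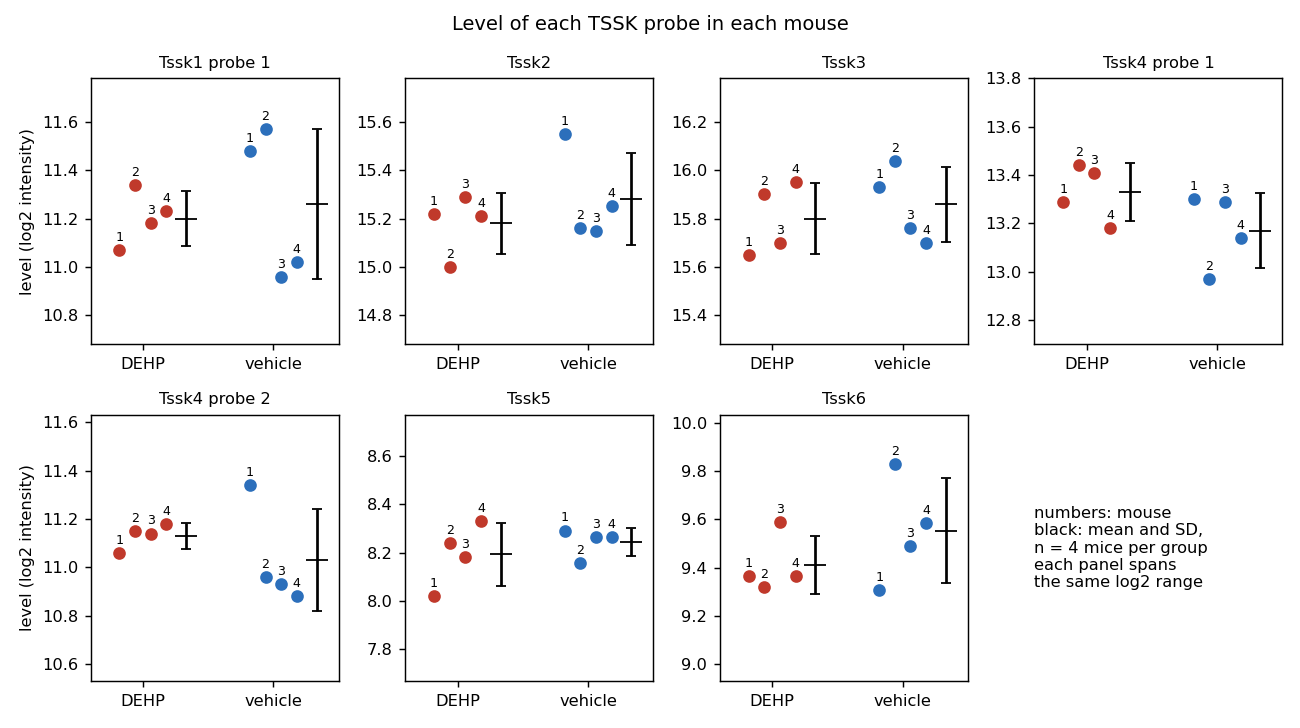
Level of each kept probe of the family (y axis, log2 intensity after normalization) in each mouse, DEHP in red and vehicle in blue, with the mouse number above each point and the mean ± SD of 4 mice in black. The panels span the same log2 range, and in each of the 7 the DEHP and vehicle points overlap.

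As linear folds, the 95% intervals of the 7 probes ran from 0.725 (Tssk1) to 1.30 (Tssk4 probe 1) times the vehicle level, and that of Tssk5 was the narrowest, at 0.885 to 1.05. The plot of means and intervals shows each of them crossing 0. An interval of this kind is for the mean of 4 pairs, and 4 pairs limit its precision. Single pairs can lie outside it, as pair 1 of Tssk1 probe 1 did, at a log2 ratio of -0.51 against -0.46 to 0.35.

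**Figure D2:**
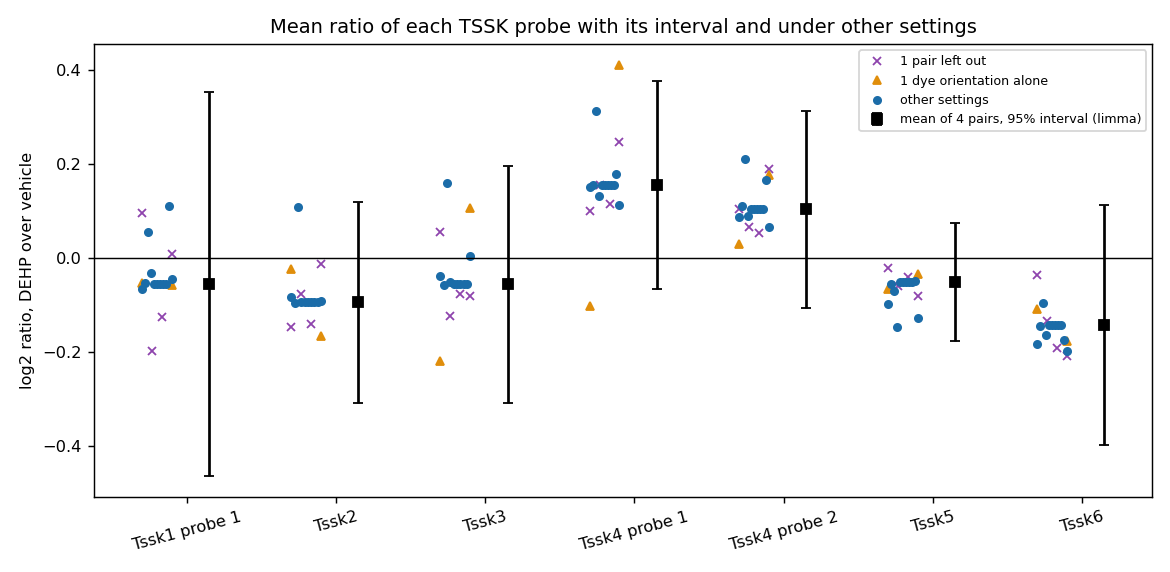
Mean log2 ratio of DEHP over vehicle (y axis) for each kept probe, with the 95% interval of limma over 4 pairs in black and the values under other processing settings in colour (crosses leave out 1 pair, triangles use 1 dye orientation, circles are the others). Each interval crosses 0, and the triangles of Tssk3 and Tssk4 probe 1 lie on opposite sides of 0.

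The 2 arrays of a pair had the same sign in 4 of 4 pairs for Tssk1 probe 1, Tssk4 probe 2 and Tssk5, in 3 of 4 for Tssk2 and in 2 of 4 for Tssk3, Tssk4 probe 1 and Tssk6. For Tssk1 probe 1 the arrays with DEHP in Cy5 gave -0.48, 0.48, 0.12 and -0.33 in pairs 1 to 4, and those with DEHP in Cy3 gave -0.53, 0.26, 0.20 and -0.16. Its SD over pairs was 4.68 times the SD, over pairs, of an array's distance from its pair mean. That ratio was 1.97 for Tssk6, 2.32 for Tssk5 and 7.48 for Tssk3, with the other members between, and its median over all probes was 3.23. Among the 2297 kept probes of its brightness class, 1 of 10 classes of about equal size, the SD over pairs stood at the 83.3rd percentile for Tssk1 probe 1 and at the 8.05th for Tssk5, and the other 5 lay between the 29.6th and the 56.4th.

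On 2 members the dye orientation changed the sign of the mean. Tssk4 probe 1 had a mean of -0.10 where Cy5 held the DEHP sample and 0.41 where Cy3 held it. The gap was -0.51 on average, with -0.58 to -0.44 over the 4 pairs, and its size was at the 98.7th percentile of all probes. With DEHP in Cy3 alone, Tssk4 probe 1 had an unadjusted p of 0.00586 and an adjusted p of 0.443 by limma. Tssk3 had -0.22 when the DEHP sample was in Cy5 and 0.11 when it was in Cy3, a gap at the 93.7th percentile. The other Tssk4 probe had the smaller gap of -0.15 (0.030 for DEHP in Cy5 against 0.18 for DEHP in Cy3), and Tssk1 probe 1, Tssk2, Tssk5 and Tssk6 kept a negative mean in both orientations. Slide 1 carried the 4 arrays labelled with Cy5 for the DEHP mouse and slide 2 those labelled with Cy3 for it. Dye orientation and slide therefore cannot be told apart, and the mean of both orientations cancels an additive dye effect.

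**Figure D3:**
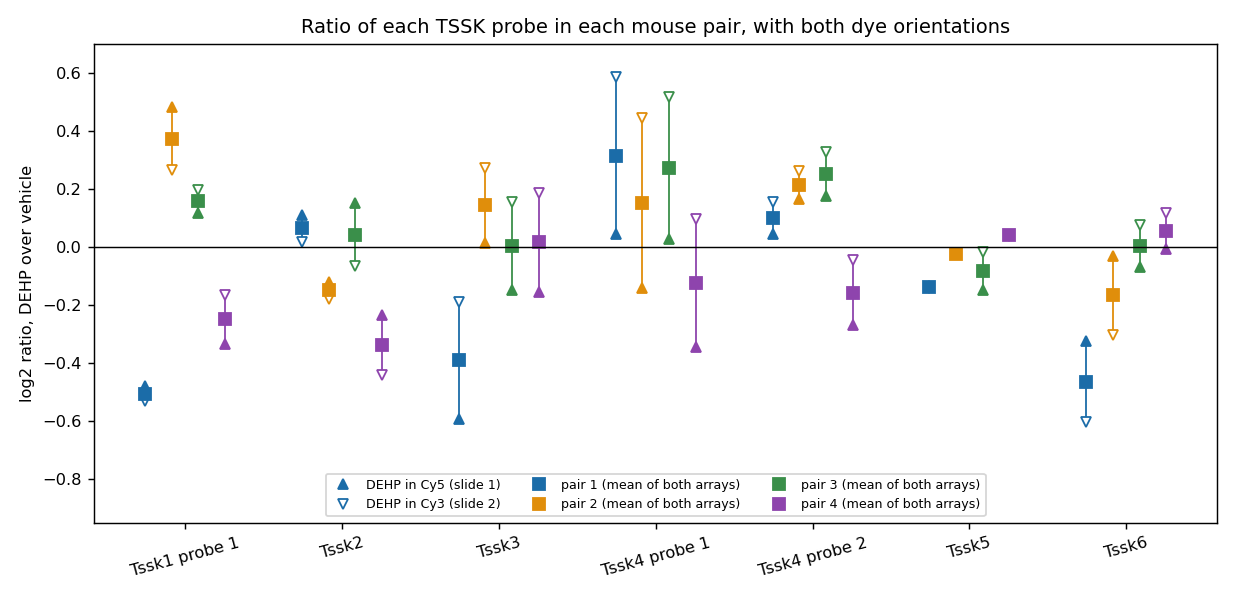
Log2 ratio of DEHP over vehicle (y axis) for each kept probe in each mouse pair (colours), with filled upward triangles for DEHP in Cy5 (slide 1), open downward triangles for DEHP in Cy3 (slide 2) and squares for their mean. Pairs lie on both sides of 0 for every probe, and the 2 orientations stand farthest apart for Tssk4 probe 1, by -0.58 to -0.44.

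The members' levels over the mice differed in pattern. Among the 21 links between the 7 probes, Pearson r over the 8 mouse levels ran from -0.66 (Tssk4 probe 1 with Tssk6) to 0.85 (Tssk1 with Tssk3), with a median of 0.12. These values are descriptive, since the mice of a pair share their arrays and the range over mice was only 0.31 to 0.61 on the log2 scale. Of 9812 other genes searched, those closest to Tssk1 over the 8 mice were Syce2, of the synaptonemal complex of meiosis (r = 0.98), and Bpgm, an enzyme of the red cell glycolytic shunt (r = 0.95). Tssk2 was closest to Nop2 (Nol1 in the files), a nucleolar RNA methyltransferase (r = 0.96), and to the protein kinase Pkn2 (r = 0.95). Tssk3 was closest to Sec23ip, of vesicle export from the endoplasmic reticulum (r = 0.97), and to Acsl1, an acyl-CoA synthetase (r = 0.96). Tssk4, by its brighter probe 1, was closest to the ribosomal protein gene Rps3a1 (Rps3a in the files, r = 0.97) and to Pin4, a prolyl isomerase (r = 0.96). Tssk5 was closest to Cpox, of haem synthesis (r = 0.97), and to Ptma, prothymosin alpha (r = 0.96). Tssk6 was closest to the membrane protein gene Emp3 (r = 0.97) and to Dock5 (BC016533 in the files), a guanine exchange factor (r = 0.96). Between 10 genes (Tssk1) and 46 genes (Tssk3) exceeded r = 0.9 with a member, in a search that picks the highest of 9812 values over 8 mice.

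By their brightest probes, most partners and substrates of the kinases lay below 0 in the main fit, without passing the test. The list held 12 genes, all kept, with a median log2 ratio of -0.12, and 2 of 12 lay above 0, beside 48.9% of all probes. By limma, 0 of 12 passed over all probes and 2 of 12 had an unadjusted p under 0.05, beside 4.59% of all probes. The pair medians were -0.096, 0.037, -0.12 and -0.058. When loess was replaced by median centring 6 of 12 lay above 0 (median 0.012), with DEHP in Cy5 alone 5 of 12 and with DEHP in Cy3 alone 3 of 12. With array weights or without pair 3 the count was 4 of 12. Without pair 4 it was 3 of 12, and without pair 1 or pair 2 it stayed at 2 of 12. Tsks (Stk22s1 in the files), the substrate shared by TSSK1 and TSSK2, had -0.26 ± 0.33 (SD, n = 4 pairs), with -0.73, -0.11, 0.011 and -0.19 in pairs 1 to 4. Its mean was -0.51 with DEHP in Cy5 alone, -0.0015 with DEHP in Cy3 alone and -0.096 without pair 1. Odf2, of the outer dense fibres of the tail, had -0.31 ± 0.36, and its other probe had -0.13. By orientation Odf2 had 0.14 with DEHP in Cy5 alone and -0.76 with DEHP in Cy3 alone. The latter had an unadjusted p of 0.00167 and an adjusted p of 0.443 by limma. H2afx, the gene of histone H2AX, had -0.12 ± 0.26. The 2 members with the smallest unadjusted p had opposite signs. Hsp90aa1, a cytosolic chaperone of kinases, had -0.19 ± 0.083 (SD, n = 4 pairs), below 0 in 4 of 4 pairs, with an unadjusted p of 0.0138 by limma and a mean of 0.037 with median centring. Tsacc (1700021C14Rik in the files), a chaperone adaptor of the TSSK family, had 0.20 ± 0.17 (SD, n = 4 pairs), above 0 in 4 of 4 pairs, with an unadjusted p of 0.0485 by limma and a mean of 0.23 on its other probe. The adjusted p of both was 0.903 by limma. With median centring Tsacc had 0.41, with an unadjusted p of 0.00119 and an adjusted p of 0.868 by limma, and without pair 3 it had 0.13.

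Kinases related to the family by sequence or by tissue did not pass either. Of 17 AMPK-related kinases listed, 12 were kept, with a median of -0.066, 5 of 12 above 0 (48.9% of all probes) and 0 past the adjusted threshold. Stk11, which encodes the upstream kinase LKB1, had -0.23 ± 0.21 (SD, n = 4 pairs) and Hunk had 0.11 ± 0.082. The 15 other protein kinases of male germ cells, all kept, had a median of -0.062, with 0 past the adjusted threshold. Of these 15, 5 lay above 0, beside 48.9% of all probes. Aurkc, an Aurora kinase of meiosis, had 0.29 ± 0.21 with 0.098 on its other probe, and Stk31 had -0.14 ± 0.13. The adjusted p of these 4 genes was 0.903 by limma, and 1 gene of each list (Stk11, 1 of 12, and Aurkc, 1 of 15) had an unadjusted p under 0.05, beside 4.59% of all probes.

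Markers of spermatids, the cells in which the family is known to be expressed, were well above background in these areas, and their ratios differed between pairs. All 14 markers of elongating spermatids and all 13 of round spermatids were well above background in all 16 channels, as were 13 of 19 Sertoli cell markers, while Gata4 and Kitl were among those below the filter. The median level of the elongating spermatid list per mouse was 13.88 to 14.42 in DEHP mice and 14.07 to 14.59 in vehicle mice. Elongating spermatid markers had a median log2 ratio of 0.011 with 8 of 14 above 0, and pair medians of -0.42, 0.077, 0.18 and 0.26, and the median was 0.22 with median centring and 0.13 without pair 1. Round spermatid markers had a median of -0.041 with 6 of 13 above 0, and pair medians of 0.15, 0.16, -0.22 and -0.21, and the median was 0.068 with median centring and 0.019 without pair 3. Pair 1, in which Tssk1, Tssk3, Tssk5, Tssk6 and Tsks had their lowest ratios, was also the lowest pair of the elongating spermatid list. Tssk2 and Tssk4 probe 1, however, had their highest ratios in that pair. The Tssk median of pair 4 was below 0 where the elongating spermatid list was highest. In that pair the round spermatid (-0.21) and spermatocyte (-0.099) lists were also below 0, and the Sertoli list (0.022) was above it. The part of the cell makeup in the ratios of the kinases was not tested.

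The protamine genes Prm1 and Prm2, whose products replace histones in sperm, had 0.39 ± 0.58 and 0.0094 ± 0.42 (SD, n = 4 pairs each). The transition protein genes Tnp1 and Tnp2 had 0.14 ± 0.54 and 0.13 ± 0.12. With median centring Prm1 had 0.63 (unadjusted p 0.0138) and Tnp1 had 0.38 (unadjusted p 0.0273), with an adjusted p of 0.868 each by limma. The median level of the Sertoli list per mouse was 9.57 to 9.70 in DEHP mice and 9.39 to 9.82 in vehicle mice. Sertoli cell markers had a median log2 ratio of 0.022 with 11 of 16 above 0, with Sox9, the transcription factor of Sertoli fate, at 0.028 ± 0.25 (-0.061 on its other probe) and Clu, a secreted chaperone, at 0.11 ± 0.20. Spermatocyte markers had a median of -0.055 (4 of 11 above 0) and spermatogonia markers of -0.070 (1 of 7 above 0). The spermatogonia median was 0.0016 with DEHP in Cy5 alone and -0.085 without pair 2. Of the Leydig cell markers, Cyp11a1, Hsd3b6 and Lhcgr fell below the filter, and the other 5 had a median of -0.15 (0 of 5 above 0), with Insl3, a Leydig hormone, at -0.12 ± 1.65. The pair medians of the Leydig list were -0.16, 0.58, -0.92 and -0.25, and its median was -0.46 without pair 2, 0.041 without pair 3 and 0.094 with array weights. Peritubular myoid, macrophage and endothelial markers had medians of 0.043 (3 of 5 above 0, and -0.077 without pair 1), -0.050 (1 of 6) and 0.082 (2 of 4). Only 3 of the 6 macrophage and 3 of the 4 endothelial markers were well above background in all 16 channels. Under the alternatives the macrophage median ran from -0.14 to -0.021 and the endothelial median from 0.030 to 0.42. In all these lists 0 genes passed the adjusted threshold of limma, and 2 of 16 Sertoli, 1 of 14 elongating spermatid and 1 of 7 spermatogonia markers had an unadjusted p under 0.05, beside 4.59% of all probes. That spermatogonia marker was the only 1 of its list above 0. The counts above 0 in the marker lists, those of spermatids included, stand beside 48.9% of all probes.

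**Figure D4:**
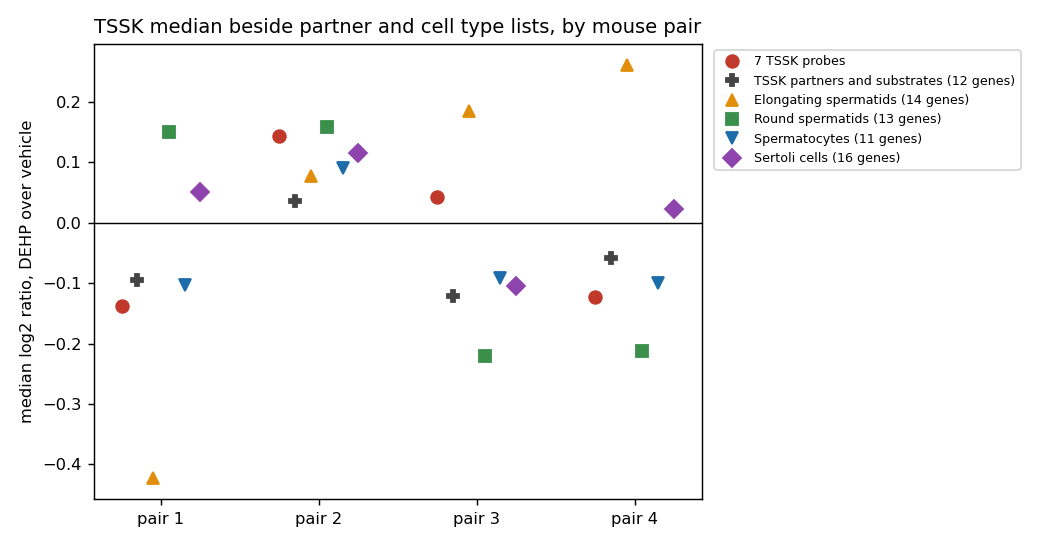
Median log2 ratio of DEHP over vehicle (y axis) in each mouse pair (x axis) over the 7 kept Tssk probes, the 12 partners and substrates, and markers of spermatids, spermatocytes and Sertoli cells. The Tssk medians of -0.14, 0.14, 0.042 and -0.12 lie within the range of the other lists in each of the 4 pairs, and the elongating spermatid list had the widest range, from -0.42 in pair 1 to 0.26 in pair 4.

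In the authors' deposited table, 5 of the 8 member probes had values, and no value was found there for Tssk2, Tssk3 and Tssk1 probe 2. The authors' deposited table gave Tssk1 probe 1 pair ratios of -0.54, 0.40, 0.22 and -0.27, with a mean of -0.046. In the authors' deposited table Tssk4 probe 1 had a mean of 0.11, Tssk4 probe 2 of 0.065, Tssk5 of -0.13 and Tssk6 of -0.20. Both Tssk4 probes had values there on 7 of the 8 arrays. For each of them, 1 pair ratio thus rests on 1 dye orientation, and the dye effect does not cancel in that mean. For each of these 5 probes the mean in the authors' deposited table had the same sign as the mean computed from the scanned intensities.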

How the data were processed

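RNA of 4 DEHP mice and 4 vehicle mice was measured on 8 Agilent 2-colour arrays, with the dyes swapped between the 2 arrays of each mouse pair. The authors deposited mean foreground and median background intensity per spot as scanned, with no subtraction, per the file headers, which name Agilent Feature Extraction 9.5.1.1. The same deposited files hold that software's log10 ratio (Cy5 over Cy3), made after background subtraction and dye normalization. A separate value table from the authors holds log2 ratios, for which limma is named in the submitters' processing notes. Their scale, centring near 0 (column medians -0.0022 to 0.012) and direction (DEHP over vehicle) were found by setting each column against that array's scanner ratio (r = 0.943 to 0.972), and its rows were matched by spot position. The filter and normalization behind that table are not given in the sources used here.

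Intensities were corrected by normexp (offset 50) and normalised by loess within arrays, with control spots at weight 0 and 246 to 331 of 45018 spots per array left out as outliers. Saturation was seen on 0 spots, and 49.8% to 59.5% of spots per channel stood well above background. Both arrays of a pair hold the same RNA extracts, and their mean was used as 1 value. A probe was tested if it stood well above background in 4 or more of 8 DEHP or of 8 vehicle channels. The mean of the 4 pair values was tested by limma 3.58.1 in R 4.3.3 (statmod 1.5.0, data.table version 1.17.8) with 2-sided moderated tests and Benjamini-Hochberg adjustment at 0.05 over all kept probes. Levels per mouse came from separate channels after Aquantile normalization between arrays. Symbols were updated through RefSeq for 22973 probes through their accession, for 6644 through the symbol and for 3105 through a synonym, and 8452 had no current symbol. A gene of a list was represented by its brightest kept probe.

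The members and lists were chosen with earlier results of these data known. Besides every member probe, the text names the 2 genes with the highest r to each member, the 2 genes of each kinase or partner list with the smallest unadjusted p, and 11 genes by name (Tsks, Tsacc, Odf2, H2afx, Prm1, Prm2, Tnp1, Tnp2, Sox9, Clu and Insl3). Some markers that fell below the filter are named in addition. The fit was tested on simulated data. RNA came from independent mice per the labels, so the tests set each mean ratio against the spread between mouse pairs. Pairs come from the labels: across probes, deviations of the 2 arrays of a pair correlated by 0.780 to 0.905, and those of different pairs were below 0. Alternatives covered background correction, normalization, filter, pairs and dyes, array weights, each pair left out and the authors' table.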

Additional observations from a re-analysis of the deposited data

Results flagged for a closer look

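Of 22 groups of 4 values examined among the members, 2 held a mouse far from the other 3, by a test that marks about 1 in 20 groups by chance. For Tssk6, DEHP mouse 3 had a level of 9.588 (log2 intensity), against 9.322 to 9.367 in the other DEHP mice. For Tssk4 probe 2, vehicle mouse 1 had a level of 11.34, against 10.88 to 10.96 in the other vehicle mice, while on Tssk4 probe 1 the same mouse, at 13.30, lay close to vehicle mouse 3 at 13.29.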

How the results depend on the processing

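Under the 17 alternatives run, 0 probes passed the adjusted threshold in each, by limma, with 496 to 2426 probes at an unadjusted p under 0.05 and a smallest adjusted p of 0.443. With each pair left out, counts at an unadjusted p under 0.05 ran from 496 (without pair 3) to 1932 (without pair 4). With the mouse pair as a replicate block over 8 arrays, 0 probes passed (smallest adjusted p 0.473, or 0.467 with a dye term), and the block changed no call. Tssk4 probe 2, Tssk5 and Tssk6 kept their sign under all 17. Alternatives that changed only the filter, the replicate block or the use of separate channels left each mean ratio as it was. No sign could turn under those. The Tssk median was 0.11 with median centring and -0.077 to 0.054 with 1 pair left out. Median centring turned Tssk1 (0.055), Tssk2 (0.11), Tssk3 (0.16), Hsp90aa1 (0.037) and Insl3 (0.0033). DEHP in Cy5 alone turned Tssk4 probe 1 (-0.10), Odf2 (0.14) and Sox9 (-0.12), and DEHP in Cy3 alone turned Tssk3 (0.11), Prm2 (-0.34) and Clu (-0.00099). Array weights turned Tssk1 (0.11), Tssk3 (0.0045), Prm2 (-0.090) and Insl3 (0.75). Leaving out 1 pair in turn gave -0.20 (pair 2 left out) to 0.094 (pair 1) for Tssk1, with 0.0088 without pair 4. It gave -0.12 to 0.054 (pair 1) for Tssk3, -0.17 (pair 4) to 0.17 (pair 1) for Prm2, -0.056 (pair 3) to 0.38 (pair 1) for Tnp1, -0.082 (pair 1) to 0.097 (pair 4) for Sox9, and -0.91 (pair 2) to 0.33 (pair 3) for Insl3. Of 379 values of named genes under the alternatives, 355 kept their sign, 24 turned and 0 passed, and the cause was not tested. The 355 include values from the alternatives under which no sign could turn.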
